A study of Mus musculus with 15 samples.

Results

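Genes that encode subunits of the GABA-A receptor were followed through all 15 RNA-sequencing libraries of the study. The 7 genes were the alpha subunit genes Gabra2, Gabra3, Gabra4 and Gabra5, the beta subunit genes Gabrb1 and Gabrb2, and the gamma subunit gene Gabrg1. They were taken from a list of names, and each was found by its Entrez identifier among the 23132 genes kept from the count table, so 7 of 7 were present. All 7 also passed the filter on low counts in every comparison. The study asked how loss of PHF6, a chromatin-associated protein mutated in Börjeson-Forssman-Lehmann syndrome, changes gene expression in the foetal cerebral cortex and in cortical neurons of C57BL/6 mice. Intact cortex was taken at E15.5 from 3 Phf6+/Y controls and 5 Phf6-/Y foetuses with germline deletion, from 3 litters. Cortical neurons were isolated at E16.5 and kept in culture for a day, from 3 Phf6+/Y;Nes-creTg/+ controls and 4 Phf6lox/Y;Nes-creTg/+ foetuses of 4 litters. Both neuron groups carried the Nes-cre transgene, which drives Cre in neural progenitors and their progeny, and the floxed allele was absent from the controls, so floxed littermates without Cre were not part of the design. Germline deletion removes Phf6 from every cell, whereas cells outside the Nes-cre lineage keep it. One neuron litter held a Phf6lox/Y;Nes-creTg/+ culture only and adds nothing to a difference estimated within litters.

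GABA-A receptors are pentameric chloride channels opened by GABA, most often built from alpha, beta and gamma subunits. The alpha subunit sets much of the affinity for GABA, the kinetics and the pharmacology. Receptors with the alpha2 or alpha3 subunit are characteristic of the developing forebrain, alpha5 is known for extrasynaptic receptors of hippocampal and cortical neurons, and alpha4 for extrasynaptic receptors that act with the delta subunit. Beta subunits are needed for assembly and transport to the surface, and the gamma1 subunit is a less common partner than gamma2 in the cortex. In immature neurons a high internal chloride concentration lets GABA depolarise the cell.

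Of the 7 genes, 5 differed between cultured neurons and intact cortex of control foetuses, a comparison in which 24.7% of all genes tested were higher and 26.4% lower in culture. In control neurons, Gabra2, Gabrb2 and Gabra5 were higher than in control cortex by 3.32-fold, 2.22-fold and 1.85-fold, and Gabra3 and Gabrg1 were lower. Loss of Phf6 gave 0 calls among the 7 genes in either tissue at an FDR below 0.05 in edgeR's quasi-likelihood test. The fitted log2 fold change (log2FC, deleted over control) was above 0 for 6 of 7 genes in the cortex and for 7 of 7 in the neurons, where Gabra5 came closest to the threshold with a log2FC of 0.49 and an FDR of 0.0624. That gene crossed the threshold under 8 of 13 other ways of running the neuron comparison. Each of these 8 also called more genes over the whole table than the main fit did.

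Of the 7 genes, 4 lie in a cluster on mouse chromosome 5, between positions 70751047 and 72149572 of GRCm38 (the same build as mm10), a stretch of 1398526 bases. In chromosomal order these are Gabrg1 (chr5:70751047-70842617), Gabra2 (chr5:70958392-71095849), Gabra4 (chr5:71569734-71658308) and Gabrb1 (chr5:71657921-72149572). The first 3 lie on the minus strand and Gabrb1 on the plus strand. Between Gabra2 and Gabra4 the annotation holds 1 other protein-coding gene, Cox7b2. The 5′ ends of Gabra4 and Gabrb1 overlap head to head by 388 bases, of which 46 are exonic in both genes. Gabra5 (chr7:57407669-57591016, minus strand), Gabrb2 (chr11:42419515-42632591, plus strand) and Gabra3 (chrX:72432676-72656919, minus strand) lie elsewhere. Exons of Gabra5 share 148 bases with Gm9962, an antisense gene. The libraries were stranded, but the strand setting of the counting was not given in the sources used here, so reads from these shared stretches may have been counted for either gene.

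Promoter windows of 300 bases (250 before and 50 after an annotated start, RefSeq, GRCm38.p6) were found for 7 of 7 genes, 11 windows in all. The 4 windows printed here belong to 2 of the 3 genes higher, and the 2 genes lower, in cultured neurons than in cortex. The windows of Gabrb2, the third gene that was higher, are not printed, and their CG counts are given below. Sequences run 5′ to 3′ on the strand of the gene, and capitals mark CG dinucleotides and the letters TATAAA on either strand.
Gabra2 (chr5:71095800-71096099, minus strand, higher in neurons): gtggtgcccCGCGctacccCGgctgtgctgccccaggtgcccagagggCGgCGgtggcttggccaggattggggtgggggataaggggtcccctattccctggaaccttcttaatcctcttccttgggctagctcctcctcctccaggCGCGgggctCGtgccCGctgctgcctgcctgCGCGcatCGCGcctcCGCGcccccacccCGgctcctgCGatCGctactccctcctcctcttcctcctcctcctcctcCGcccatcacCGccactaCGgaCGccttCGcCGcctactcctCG
Gabra5 (chr7:57510010-57510309, minus strand, higher in neurons): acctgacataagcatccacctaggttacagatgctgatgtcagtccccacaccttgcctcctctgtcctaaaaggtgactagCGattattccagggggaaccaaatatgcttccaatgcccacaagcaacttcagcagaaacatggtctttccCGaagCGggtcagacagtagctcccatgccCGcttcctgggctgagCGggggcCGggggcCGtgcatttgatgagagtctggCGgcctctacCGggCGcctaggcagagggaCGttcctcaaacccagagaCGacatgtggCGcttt
Gabra3 (chrX:72656870-72657169, minus strand, lower in neurons): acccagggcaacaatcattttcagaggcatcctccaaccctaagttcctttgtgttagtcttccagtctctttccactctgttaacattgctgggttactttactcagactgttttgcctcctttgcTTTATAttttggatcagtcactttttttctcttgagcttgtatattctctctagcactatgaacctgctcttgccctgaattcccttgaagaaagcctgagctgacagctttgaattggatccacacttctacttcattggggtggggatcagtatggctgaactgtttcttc
Gabrg1 (chr5:70842568-70842867, minus strand, lower in neurons): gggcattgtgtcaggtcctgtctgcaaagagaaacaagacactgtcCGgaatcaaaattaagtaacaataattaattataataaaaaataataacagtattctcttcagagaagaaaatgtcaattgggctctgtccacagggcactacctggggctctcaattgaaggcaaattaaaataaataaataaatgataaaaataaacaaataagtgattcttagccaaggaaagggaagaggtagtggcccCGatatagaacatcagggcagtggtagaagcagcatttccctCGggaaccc
The Gabra2 window held 25 CG dinucleotides and the Gabra5 window 13. The Gabra5 window lies at an annotated start inside the gene, whose 5′ end is at position 57591016. The other printed windows lie at the 5′ end of their gene, so the Gabra5 window is not a like counterpart. The Gabrg1 window held 3, and both Gabra3 windows held 0. Over all 32851 windows in the table the median was 7, with quartiles of 3 and 20. The 3 windows of Gabrb2, which was also higher in neurons, held 11, 9 and 9. Of the genes not called between tissues, Gabrb1 held 25 in its first window and 9 in its second, and Gabra4 held 12. TATAAA, searched on both strands, was found in a window of Gabrb2, 30 bases before the start on the strand of the gene, and on the opposite strand in both Gabra3 windows, which share 188 bases and hold the same site. It occurs in 13.6% of all windows. GGGCGG, searched on both strands, was found in windows of Gabra2, Gabra4 and Gabrb2 and occurs in 35.7% of all windows. TGACGTCA was in none of the 11 windows and occurs in 1.79% of all windows. With 7 genes these are descriptions of the windows and no test was made.

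Library totals ranged from 16858007 to 31157700 counts (median 24218468). Phf6 itself was lower in every deleted library than in every control, with a log2FC of -1.86 (FDR = 1.05e-05) in the cortex and -1.82 (FDR = 5.42e-09) in the neurons. The deleted allele lacks only part of the exons, so reads from its remaining exons can still be counted for the gene. The paper reported no reads over the deleted exons in either tissue, and no PHF6 protein in deleted E15.5 brains. All 6 pan-neuronal markers were detected in every group, with a summed level of 4498 to 5735 CPM (counts scaled to the TMM-adjusted library total) in the cortices and 7655 to 8810 CPM in the cultures. One library stood apart. In Phf6-/Y cortex replicate 1 the 3 thalamic markers summed to 386 CPM, against 24.6 to 46.9 CPM in the other 7 cortices, and the 7 markers of excitatory cortical neurons summed to 1272 CPM against 2004 to 2239 CPM. Fold changes of the 7 genes in the cortex are therefore given with and without that library. It was the only Phf6-/Y library of litter 3, so leaving it out also removed that litter from the difference within litters. The effect of the library cannot be told apart from that of the lost litter. The 5 choroid plexus markers ranged from 8.23 to 473 CPM among the cortices, in both genotypes. Counts from bulk RNA cannot tell fewer cells of a type from less RNA per cell.

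Levels were compared between the genes only per kilobase of gene length (RPKM). In Phf6+/Y cortex Gabra3 was the most abundant, at 9.06 ± 0.31 RPKM (SD, n = 3). It was followed by Gabra2 at 6.80 ± 1.29, Gabrb2 at 6.41 ± 0.66 and Gabra5 at 5.24 ± 1.13 RPKM. The ranges of Gabra2 and Gabrb2 overlapped, as did those of Gabrb2 and Gabra5, so the order within these 3 genes did not exceed their spread. Gabra4 at 2.70 ± 0.61, Gabrb1 at 1.38 ± 0.29 and Gabrg1 at 0.980 ± 0.22 RPKM came last, each below the range of the gene before it. In Phf6-/Y cortex Gabra3 again stood above all others in 5 of 5 libraries, at 11.5 ± 1.42 RPKM (SD, n = 5), and the ranges of Gabra2, Gabra5 and Gabrb2 overlapped.

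The order was different in culture. Gabra2 led in Phf6+/Y;Nes-creTg/+ neurons at 22.6 ± 3.84 RPKM (SD, n = 3), above Gabrb2 at 14.2 ± 3.06 and Gabra5 at 9.72 ± 2.01 RPKM, whose ranges overlapped. Gabra3 followed at 5.19 ± 1.40 RPKM, before Gabra4 at 3.49 ± 0.35, Gabrb1 at 1.87 ± 0.34 and Gabrg1 at 0.327 ± 0.12 RPKM, with no overlap between neighbours. The order in Phf6lox/Y;Nes-creTg/+ neurons was the same, led by Gabra2 at 22.7 ± 2.15 RPKM (SD, n = 4). Of the summed RPKM of the 7 genes, Gabra3 made up 28.0% ± 2.28 in control cortex and 8.95% ± 0.83 in control neurons, whereas Gabra2 made up 20.8% ± 1.73 and 39.4% ± 1.92. The ratio of Gabra2 to Gabra3 was 0.659 to 0.893 in the control cortices, 0.434 to 0.946 in the Phf6-/Y cortices, 3.99 to 5.10 in control cultures and 3.16 to 4.84 in Phf6lox/Y;Nes-creTg/+ cultures. The ratio thus separated all cortices from all cultures. Its ranges overlapped between genotypes, but within each of the 6 litters that held both genotypes the mean was lower in the deleted libraries. In litters 1, 2 and 3 of the cortex it was 0.893, 0.692 and 0.659 in controls and 0.856, 0.644 and 0.434 in Phf6-/Y. In litters 4, 5 and 6 of the cultures it was 5.10, 4.22 and 3.99 in controls and 4.84, 3.16 and 3.498 in Phf6lox/Y;Nes-creTg/+. The 0.434 of litter 3, the lowest cortical value, is that of the library with thalamic markers alone. In litter 1 the Phf6-/Y cortices were at 0.767 and 0.946, so that 1 of them lay above its control. This ratio was chosen after the values were seen, and no test of it was made. The summed level of the 7 genes was 32.6 ± 3.54 RPKM in control cortex and 57.4 ± 10.3 RPKM in control neurons, and their share of all 19 subunit genes in the table was 45.9% and 40.9%.

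The order depended on the length assigned to each gene. The table gives Gabrb1 a length of 1860 bases where the longest transcript of the GENCODE annotation has 13737, Gabra2 2392 where that transcript has 5852, and Gabrb2 7552 where it has 3989. With the longest transcript as the length, Gabrb2 led in every group, at 12.1 RPKM in control cortex and 27.0 RPKM in control neurons, and Gabra2 was the fourth in control cortex and the third in control neurons. The share of Gabra3 in control cortex and control neurons was then 27.7% and 9.55%, and that of Gabra2 was 8.35% and 16.7%. The ratio of Gabra2 to Gabra3 was then 0.265 to 0.359 in control cortices and 1.60 to 2.05 in control cultures. Fold changes of single genes between groups do not depend on this choice.

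**Figure D1:**
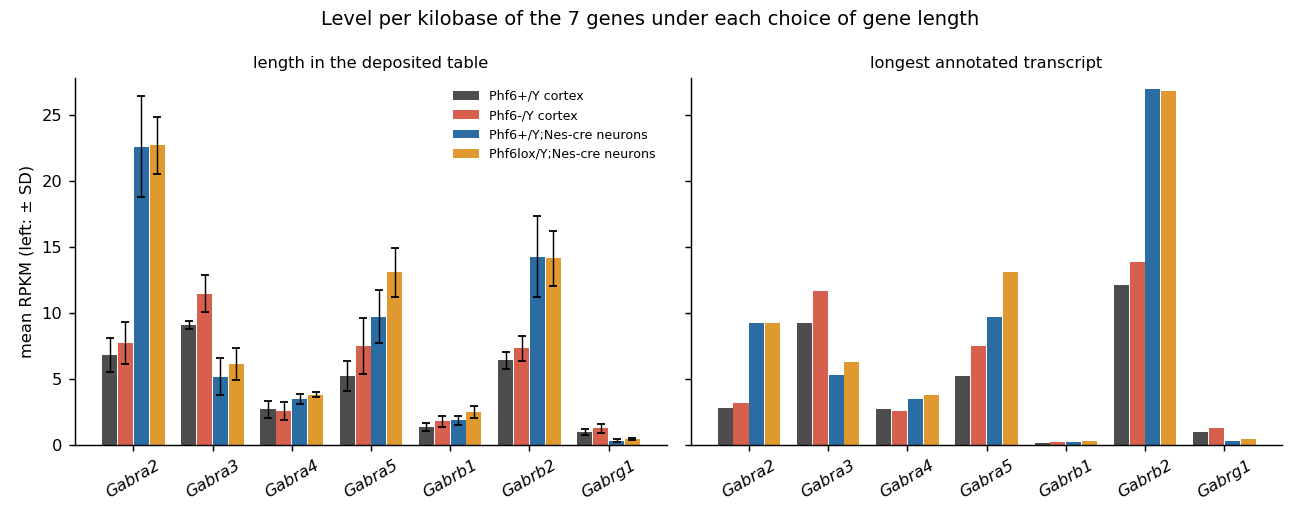
Mean RPKM of the 7 genes in the 4 groups (bars), with SD in the left panel. The left panel uses the gene length of the deposited table and the right panel the longest annotated transcript; Gabra2 leads in neurons on the left (22.6 RPKM) and Gabrb2 on the right (27.0 RPKM), while within each gene the groups keep their proportions.

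Among the alpha subunit genes, Gabra2 showed the largest rise in culture. It was at 13.7, 15.3 and 19.7 CPM in the 3 control cortices and at 49.7, 47.8 and 64.6 CPM in the 3 control cultures. Every culture lay above every cortex, and the log2FC was 1.73 (SE 0.16, FDR = 3.13e-06). The Phf6-/Y cortices held 12.6, 18.7, 20.3, 17.8 and 23.0 CPM and overlapped with the controls. The log2FC between genotypes was 0.10 (95% interval -0.16 to 0.37, FDR = 0.831), and 0.19 without the library with thalamic markers. In Phf6lox/Y;Nes-creTg/+ cultures the gene was at 48.3, 55.0, 53.0 and 60.7 CPM, within the range of the control cultures, with a log2FC of 0.07 (95% interval -0.10 to 0.24, FDR = 0.839).

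Gabra3 moved the other way between tissues. Control cortices held 32.5, 34.5 and 34.4 CPM and control cultures 15.2, 17.6 and 25.2 CPM. Every culture lay below every cortex (log2FC -0.81, SE 0.16, FDR = 0.00122). The 5 Phf6-/Y cortices were at 45.1, 46.3, 48.1, 36.2 and 38.0 CPM, each above all 3 controls, and the difference was positive within 3 of 3 litters, from 0.11 to 0.47 on the log2 scale. The log2FC of 0.33 (SE 0.09, 95% interval 0.14 to 0.52) ranked 225th of 14750 genes by p and had an FDR of 0.168, short of the threshold. Without Phf6-/Y cortex replicate 1, which held 45.1 CPM, it was 0.28 (FDR = 0.480), and over all alternatives the FDR ranged from 0.0649 to 0.580. Phf6lox/Y;Nes-creTg/+ cultures were at 20.8, 17.7, 26.2 and 27.1 CPM, 2 of the 4 above all controls. In the cultures log2FC was 0.29 (SE 0.12, 95% interval 0.04 to 0.54, FDR = 0.393), positive within 3 of 3 litters.

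Gabra4 was at 8.26, 12.2 and 12.9 CPM in control cortices and at 14.1, 13.1 and 16.0 CPM in control cultures. Although all cultures lay above all cortices, the log2FC of 0.37 (SE 0.18) did not pass the test (FDR = 0.109). Phf6-/Y cortices held 6.05, 12.8, 12.3, 9.80 and 12.5 CPM, the lowest value in the library with thalamic markers. This was the only one of the 7 genes with a negative log2FC in the cortex, -0.19 (95% interval -0.49 to 0.11, FDR = 0.689), and -0.09 without that library. In Phf6lox/Y;Nes-creTg/+ cultures the values were 16.0, 16.6, 15.6 and 14.8 CPM, overlapping with the controls (log2FC 0.12, 95% interval -0.15 to 0.40, FDR = 0.810).

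Gabra5 was the gene with the largest fitted difference between genotypes in both tissues. Control cortices held 13.5, 11.3 and 17.2 CPM, and Phf6-/Y cortices 12.01, 24.3, 25.6, 16.7 and 21.7 CPM, 3 of the 5 above all controls. The difference was not alike in the litters: the log2 difference was 1.14 in litter 2, 0.14 in litter 1 and -0.17 in litter 3. Over the litters the log2FC was 0.40 (SE 0.22, 95% interval -0.11 to 0.90, FDR = 0.587). It was 0.02 without the litter 2 control (Phf6+/Y cortex replicate 2) and 0.62 without the litter 3 control or without the litter 3 Phf6-/Y cortex, which was the library with thalamic markers.

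In the cultures the litters gave the same direction for Gabra5. Control cultures were at 21.1, 25.1 and 31.8 CPM and Phf6lox/Y;Nes-creTg/+ cultures at 30.8, 30.7, 39.8 and 38.5 CPM. The groups overlapped, since only 2 of the 4 deleted cultures lay above all controls, but within litters 4, 5 and 6 the log2 difference was 0.54, 0.66 and 0.28. The log2FC was 0.49 (SE 0.10, 95% interval 0.28 to 0.71), a rise of 40.6%, and ranked 51st of 13909 genes by p, with an FDR of 0.0624. DESeq2 gave an FDR of 0.0382, limma-trend 0.0588, library totals without scaling factors 0.0348 and the table without a filter on low counts 4.27e-04. Without the litter term the FDR was 0.739 and the log2FC 0.43. Leaving out single libraries gave values that ranged from 0.40 to 0.60 on the log2 scale, and 5 of 7 such fits passed the threshold. The exceptions were those without the control or the deleted culture of litter 5 (FDR = 0.466 and 0.429). Litters 4, 5 and 6 held 1 control and 1 deleted culture each. Leaving out either removed that litter from the difference, so the 7 fits are not separate. Over the whole table the fits that passed called 37 to 335 genes up and the exceptions 12 and 15, against 27 with every library. Between control tissues Gabra5 was higher in culture, every culture above every cortex, by a log2FC of 0.89 (SE 0.18, FDR = 0.00147).

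**Figure D2:**
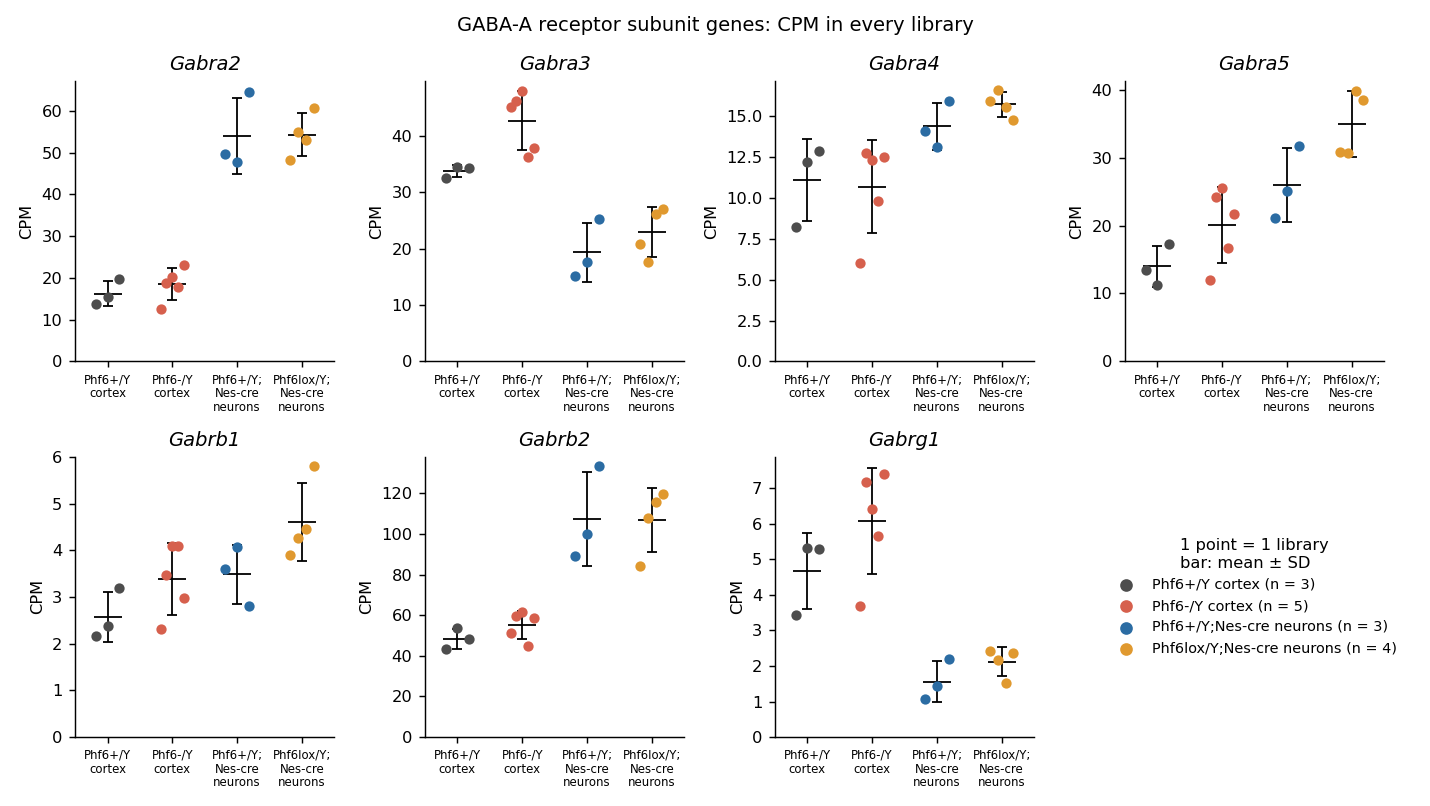
Level of each gene in CPM (vertical axis, linear, from 0) in the 15 libraries, by group; each point is a library and the bars give the mean ± SD. Gabra2, Gabra5 and Gabrb2 sit higher in cultures than in control cortex, Gabra3 and Gabrg1 sit lower, and the 5 Phf6-/Y cortices lie above the 3 controls for Gabra3 (36.2 to 48.1 against 32.5 to 34.5 CPM).

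Of the beta subunit genes, Gabrb2 had the higher counts. It was at 43.6, 53.6 and 48.1 CPM in control cortices and at 89.1, 100.2 and 134 CPM in control cultures, with no overlap (log2FC 1.15, SE 0.14, FDR = 6.32e-05). Phf6-/Y cortices held 51.5, 59.8, 61.7, 44.8 and 58.4 CPM. Of the 5 libraries 3 were above all controls, and the difference was positive within 3 of 3 litters, with a log2FC of 0.16 (SE 0.09, 95% interval -0.03 to 0.35, FDR = 0.563), and 0.14 without the library with thalamic markers. Phf6lox/Y;Nes-creTg/+ cultures were at 84.2, 108, 116 and 119 CPM, inside or just below the range of the controls. The log2FC was 0.11 (95% interval -0.06 to 0.28, FDR = 0.715). Leaving out the litter 6 control, the highest of the control cultures, raised it to 0.24 with an FDR of 0.0332.

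Gabrb1 was the gene with the second lowest level per length and had 55 to 121 counts per library. Control cortices held 2.16, 2.38 and 3.18 CPM and control cultures 3.59, 4.06 and 2.81 CPM, and the ranges overlapped (log2FC 0.44, 95% interval -0.20 to 1.08, FDR = 0.238). In Phf6-/Y cortices the values were 2.31, 3.48, 4.10, 4.08 and 2.97 CPM, 3 of the 5 above all controls. The log2FC was 0.32 (SE 0.25, 95% interval -0.22 to 0.85, FDR = 0.707), and 0.40 without that library. Phf6lox/Y;Nes-creTg/+ cultures held 3.89, 4.27, 4.46 and 5.82 CPM, 3 of the 4 above all controls, with a log2FC of 0.47 (SE 0.25, 95% interval -0.06 to 1.00, FDR = 0.541). Within litters the difference was positive in 3 of 3 in each tissue. At these counts differences of this size did not exceed their error.

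Gabrg1, next to Gabra2 on chromosome 5, moved against its neighbour between tissues. Control cortices held 3.44, 5.31 and 5.28 CPM and control cultures 1.06, 1.43 and 2.19 CPM, or 29 to 50 counts. Every culture lay below every cortex, by a log2FC of -1.59 (SE 0.34, FDR = 0.00157). Phf6-/Y cortices were at 3.70, 7.17, 6.40, 5.65 and 7.40 CPM, 4 of the 5 above all controls, the exception being the library with thalamic markers. The log2FC was 0.26 (95% interval -0.13 to 0.66, FDR = 0.662), and 0.33 without that library. Phf6lox/Y;Nes-creTg/+ cultures were at 2.41, 2.17, 1.53 and 2.35 CPM, 2 of the 4 above all controls, with a log2FC of 0.41 whose interval was wide (-0.36 to 1.19, FDR = 0.765).

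In total 3 of the 7 genes were higher and 2 were lower in control cultures than in control cortex, with Gabra4 and Gabrb1 short of the threshold. Over all 14320 genes tested in that comparison 24.7% were higher and 26.4% lower, a background in which about every other gene was called. With library totals in place of TMM the split over all genes was 2459 higher and 5003 lower, against 3541 and 3777. The 5 calls held under all 12 alternatives. The control groups differed in age, dissociation, a day of culture, the Nes-cre transgene and litter, which cannot be told apart. Marker RNA of several cell types moved with them. In control cultures 5 of 6 pan-neuronal markers were higher. Lower were 9 of 9 radial glia and progenitor markers, 8 of 8 interneuron markers, 4 of 4 proliferation markers and 4 of 4 endothelial markers. The 7 markers of excitatory cortical neurons were split, with 4 higher and 3 lower, and 3 of 3 Cajal-Retzius markers were lower. The summed interneuron markers were at 696 to 875 CPM in control cortex and 188 to 272 CPM in control cultures, and the summed radial glia and progenitor markers at 2171 to 2186 and 574 to 806 CPM. The part of these shifts in the subunit levels was not tested.

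**Figure D3:**
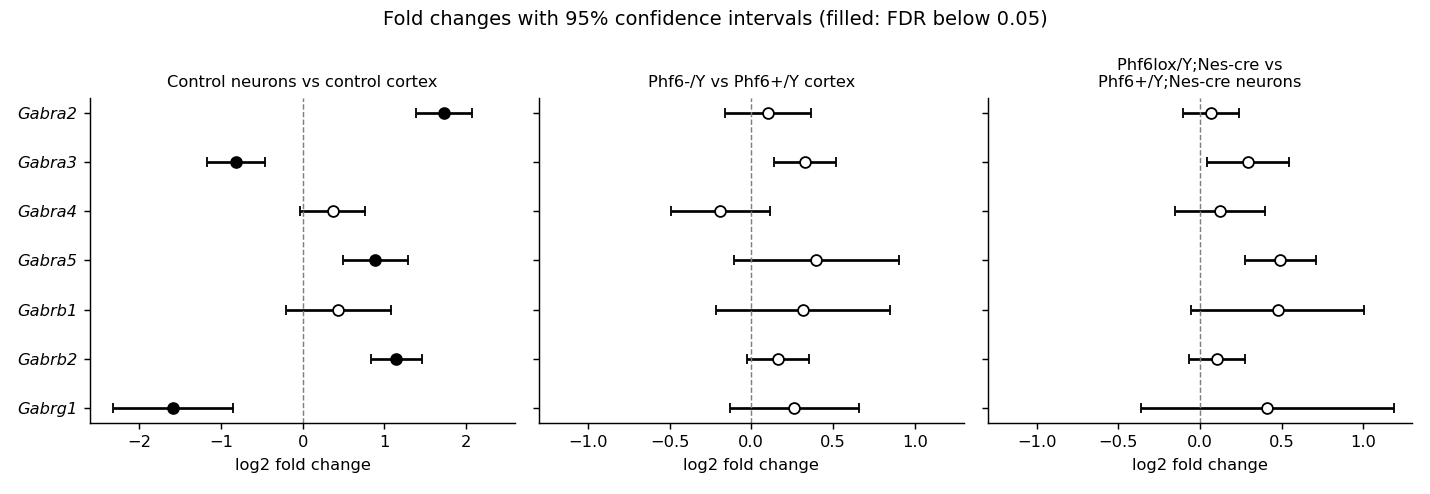
Fitted log2 fold change (horizontal axis) with its 95% confidence interval for each gene, in control cultures against control cortex (left), in Phf6-/Y against Phf6+/Y cortex (middle) and in Phf6lox/Y;Nes-creTg/+ against Phf6+/Y;Nes-creTg/+ neurons (right); filled points have an FDR below 0.05. On the left 5 points are filled and none in the genotype panels, where 6 of 7 and 7 of 7 points lie to the right of 0.

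Between genotypes in the cortex, 0 of the 7 genes were called by edgeR, DESeq2 or limma-trend at an FDR below 0.05, where 0.319% of 14750 genes were called upregulated and 0.0678% downregulated by edgeR. At an unadjusted p below 0.05, 1 of the 7 (Gabra3) was higher in Phf6-/Y cortex by edgeR and by limma-trend and 2 by DESeq2, against 5.69% of all genes by edgeR. A log2FC above 0 was seen in 6 of 7, against 49.4% of all genes. The median log2FC of the 7 was 0.26, and that of all genes was -0.002. Neither RLE scaling nor library totals changed the number of positive values in either tissue. In Phf6-deleted neurons edgeR and limma-trend called 0 of the 7 genes and DESeq2 called 1, Gabra5, with 0.194% of 13909 genes upregulated and 0.0791% downregulated by edgeR. Of the 7, 2 (Gabra3 and Gabra5) were higher at an unadjusted p below 0.05, against 5.87% of all genes, and 7 of 7 log2FC values were above 0, against 50.3%. Their median was 0.29 and that of all genes 0.001. The members are correlated with each other, so that these counts do not stand for 7 separate observations. In the cortex 1 of the 3 Cajal-Retzius markers was called higher in Phf6-/Y. Their sum was 252 to 289 CPM in Phf6+/Y cortices, 230 CPM in the library with thalamic markers and 336 to 388 CPM in the other 4 Phf6-/Y cortices. Summed levels of 3 marker lists did not overlap between genotypes in the cultures, and those of all other lists did. Ranges of so few libraries can separate without a difference between genotypes, and the share of all genes that separate in this way was not computed. The 3 Cajal-Retzius markers, of which 1 was called, summed to 90.4 to 137 CPM in controls and 154 to 334 CPM in Phf6lox/Y;Nes-creTg/+ cultures. The 3 thalamic markers, of which 1 of 2 tested was called, summed to 9.74 to 11.6 and 15.1 to 18.3 CPM, and the 5 choroid plexus markers, of which 1 of 2 tested was called, to 1.97 to 3.65 and 5.23 to 24.1 CPM. In each of these lists the difference lay mainly in 1 gene. Its mean was 8.10 and 13.9 CPM for the thalamic list, and 1.27 and 9.26 CPM for the choroid plexus list. Some other choroid plexus markers had a lower mean in the deleted cultures. Of the 8 interneuron markers 1 was called higher, with sums of 188 to 272 and 243 to 317 CPM that overlapped. The part of these markers in the subunit levels was not tested.

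**Figure D4:**
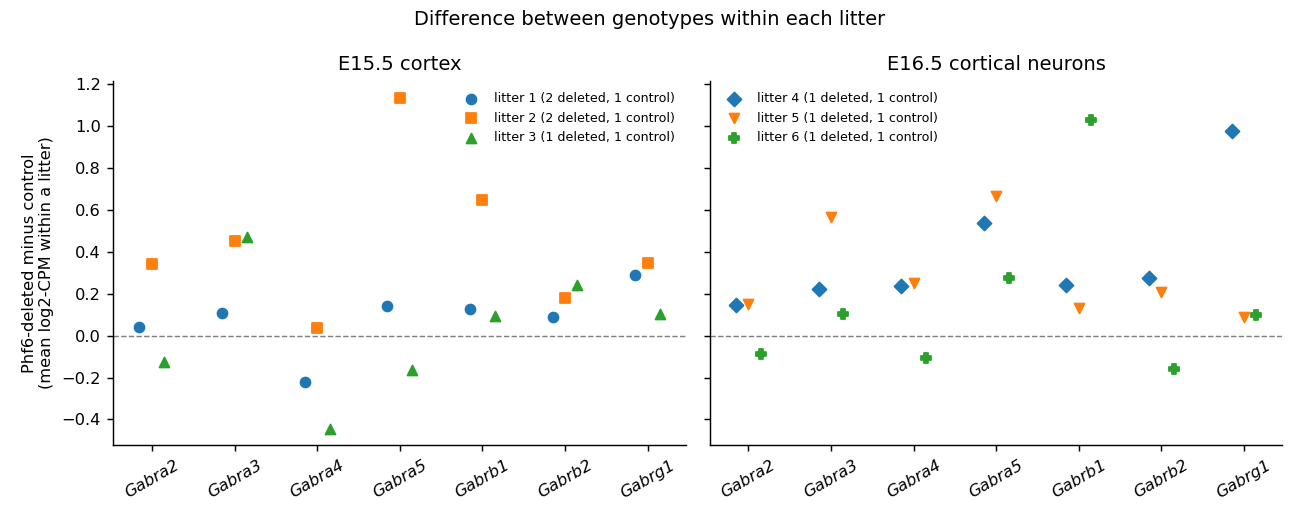
Difference in mean log2-CPM between Phf6-deleted and control libraries of the same litter (vertical axis) for each gene, in the 3 cortical litters (left) and the 3 neuron litters with a control (right). Gabra3, Gabrb1, Gabrb2 and Gabrg1 lie above 0 in 3 of 3 cortical litters, Gabra3, Gabra5, Gabrb1 and Gabrg1 in 3 of 3 neuron litters, and Gabra5 in the cortex spans -0.17 to 1.14.

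Whether the effect of Phf6 loss differed between the tissues was tested as an interaction. None of the 7 genes was called (FDR from 0.954 to 0.987), with 0 below an unadjusted p of 0.05, and DESeq2 and limma-trend gave 0 as well. Over all 15001 genes 0.0133% were called. Among the 7, Gabra4 had the largest estimate, 0.31 higher in neurons on the log2 scale (95% interval -0.10 to 0.72). For Gabra3 the interval of the difference was -0.35 to 0.27 and for Gabra5 -0.54 to 0.71, so that differences of these sizes between the tissues cannot be told from 0.

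After subtraction of the mean of each tissue, the 7 genes varied together from library to library. Of the 21 pairs, 21 had a positive Pearson's r of log2-CPM over 15 libraries, with a median of 0.57. The share of all gene pairs with a positive r was not computed. The pairs Gabra2 and Gabra4 (0.76), Gabra2 and Gabra5 (0.75) and Gabra2 and Gabrg1 (0.73) were highest, and Gabra3 and Gabra4 (0.06) and Gabrb1 and Gabrb2 (0.16) lowest. Without Phf6-/Y cortex replicate 1 the median was 0.62 and Gabra3 with Gabra5 became the highest pair at 0.83. Within the 8 cortices 20 of 21 pairs were positive (median 0.62) and within the 7 cultures 18 of 21 (median 0.52). Libraries share litters and genotype, and the level of pan-neuronal markers varied with the subunits: r with their summed level was positive for 7 of 7 genes, from 0.18 for Gabra3 to 0.84 for Gabra4, and negative for 7 of 7 genes with radial glia and progenitor markers. With the summed Cajal-Retzius markers r was also positive for 7 of 7 genes, from 0.02 for Gabrb2 to 0.76 for Gabrg1. For Gabra3 (0.39) it was higher than with the pan-neuronal markers. With excitatory cortical neuron markers r was positive for 6 of 7 genes (Gabra3 -0.17), and with interneuron or thalamic markers for 1 of 7 each. The share of all genes with these signs was not computed. The genes most like each member over the same libraries, among 13733 tested in both tissues, were Rabgap1l for Gabra2 (r = 0.94), Cntn3 for Gabra3 (0.95), Shtn1 for Gabra4 (0.94), Mapre2 for Gabra5 (0.94), Ptchd4 for Gabrb1 (0.88), Tasp1 for Gabrb2 (0.90) and Kcnip2 for Gabrg1 (0.91). These are the highest of many values, given as a description.

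**Figure D5:**
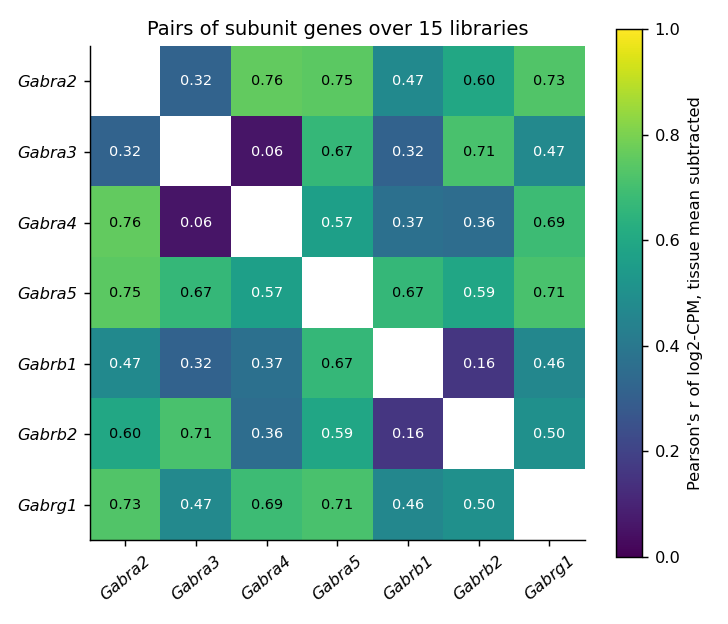
Pearson's r between each pair of the 7 genes (colour and printed value) over 15 libraries, on log2-CPM with the mean of each tissue subtracted. All 21 pairs are above 0, and the low values involve Gabra3 with Gabra4 and Gabrb1 with Gabrb2.

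Other genes of GABA signalling gave the setting. Of the 12 other subunit genes, 8 were tested in the cortex and 6 in the neurons. In both tissues 0 were called by edgeR, with 3 higher at an unadjusted p below 0.05 in each, where 5.69% of all genes were so in the cortex and 5.87% in the neurons. Gabrg3, a further gamma subunit gene, had a log2FC of 0.16 (FDR = 0.925) in the cortex and 0.64 (FDR = 0.580) in the neurons. Between control tissues 3 of 7 tested were higher in culture and 3 lower, against 24.7% and 26.4% of all genes. Among the lower were Gabrq, the theta subunit gene, by -2.83 (FDR = 0.00132) and Gabre, the epsilon subunit gene, by -2.70 (FDR = 0.0116). Either gene had at most 8 counts in a control culture. Gabre lost its call in 2 of 12 alternatives.

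In Phf6-/Y cortex 0.319% of all genes were called upregulated and 0.0678% downregulated. Of 19 genes for scaffold, assembly and trafficking of the receptor, 1 was called there. This was Iqsec3, an exchange factor of inhibitory synapses that binds gephyrin, at 33.4 to 48.9 CPM against 26.7 to 34.0 CPM (log2FC 0.43, FDR = 0.0410). It did not pass the threshold in 7 of 8 fits that left out a library, that without the thalamic-marker library included (log2FC 0.41, FDR = 0.200), nor without the litter term (FDR = 0.580) or with library totals (FDR = 0.0518). Its log2FC stayed between 0.40 and 0.46 in all of these fits. Slc12a5, which encodes the chloride exporter KCC2 that makes GABA inhibitory, was 1 of 2 chloride cotransporter genes and was called as well, at 51.7 to 75.0 CPM against 38.8 to 47.8 CPM (log2FC 0.55, FDR = 0.00732, and 0.52 with an FDR of 0.0364 without that library). Leaving out Phf6+/Y cortex replicate 1 or 2 raised its FDR to 0.0553 and 0.0977, and without the litter term it was 0.500, while its log2FC stayed between 0.51 and 0.61 in all 14 alternatives. Of 9 genes for GABA synthesis, release, uptake, breakdown and GABA-B receptors, 0 were called in the cortex, with 5 higher at an unadjusted p below 0.05, among them Abat, which encodes the GABA-degrading transaminase (0.25, FDR = 0.214), against 5.69% of all genes. In the neurons 0 genes of these lists were called, with 3 of 8 genes for GABA synthesis, release, uptake, breakdown and GABA-B receptors higher at an unadjusted p below 0.05, against 5.87% of all genes.

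Between control tissues 10 of 19 scaffold, assembly and trafficking genes were higher in culture and 3 lower, against 24.7% and 26.4% of all genes. Under all 12 alternatives 5 of the 10 and 2 of the 3 stayed called. Zdhhc3 was called in 5, Gabarapl2 in 8, Shisa7 in 9 and Gabarapl1 and Ubqln1 in 11 of the 12, and Lhfpl4, which was lower, in 4. Among them the trafficking gene Trak2 was higher by 0.67 (FDR = 1.84e-05). Of 8 genes for GABA synthesis, release, uptake, breakdown and GABA-B receptors tested, 5 were lower. They included Gad2, a GABA-synthesising enzyme (-1.83, FDR = 1.42e-07), and the vesicular transporter gene Slc32a1 (-1.83, FDR = 8.64e-06). The other 3 were higher, among them the GABA-B receptor gene Gabbr2 (1.05, FDR = 2.10e-05) and the transporter gene Slc6a11 (1.04, FDR = 1.87e-05). Slc12a5 was lower by -2.51 (FDR = 5.18e-08). Gad1, Gad2 and Slc32a1 are also among the interneuron markers, which were all lower in culture. Of the 7 receptor subunit genes 3 were higher and 2, Gabra3 and Gabrg1, were lower.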

How the data were processed

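Polyadenylated RNA was sequenced from 15 mouse samples. The authors aligned the reads to mm10 and counted them per Entrez gene with featureCounts, and the deposited values are unnormalised counts. All 15 sample files equalled their column of the series table. Rows without an identifier (1029, 0.462% of counts), 875 unmatched identifiers, 835 pseudogenes, 35 rRNA genes and 1273 predicted genes were removed. Names and positions came from RefSeq (GRCm38.p6), the build of the files.

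After filterByExpr and TMM scaling in edgeR 4.0.16 (R 4.3.3), the genotypes were compared by robust quasi-likelihood tests that included litter, and p-values were adjusted by Benjamini-Hochberg (FDR) over every gene tested. Control tissues were compared over the 6 control libraries with no litter term, since no litter spans both tissues. CPM and RPKM use TMM-scaled totals, and RPKM the length in the table. DESeq2 1.42.0, limma 3.58.1 (limma-trend), other scaling, no filter, no litter term and leaving out each library were the alternatives. Leaving out the only library of a genotype in a litter also removed that litter from the difference between genotypes. The fits were tested on simulated data. Libraries are separate foetuses or cultures by the labels.

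The litter comes from the labels, and replicate numbers do not follow it. For libraries of opposite genotype from the same litter, the median correlation of their deviations was 0.079 in the cortex and 0.217 in the neurons. These correlations ranged from -0.155 to 0.446 (5 pairs) and from 0.0951 to 0.246 (3 pairs). For different litters the medians were -0.053 and -0.130. Their ranges, -0.436 to 0.165 and -0.211 to 0.194, overlapped with those of the same litter.

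All 7 subunit genes are named, with Phf6, genes of the fixed pathway lists at an FDR below 0.05 and, for each member, the first of the 3 most correlated genes. Members and lists were chosen with earlier results of these data known. Gabrg3 and, among genes short of the threshold, Abat were named after their values were seen. A few single genes that this rule would name are not reported here.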

Additional observations from a re-analysis of the deposited data

How the results depend on the processing

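In control cultures against control cortex, the 5 calls and their directions were the same under all 12 alternatives. In the cortex the count of genes called stayed at 0 under all 14 alternatives, and 5 or 6 log2 fold changes were positive. The interaction gave 0 calls under all 21. In the neurons the count of genes called was 1 with DESeq2, 1 with library totals without TMM and 1 with no filter on low counts, each time Gabra5, and ranged from 0 to 2 when single libraries were left out (5 of 7 such fits made a call). The 2 were Gabra5 and Gabrb2, without Phf6+/Y;Nes-creTg/+ replicate 3, where the genes called over the whole table also rose, from 27 up and 11 down to 335 up and 159 down. The cause was not tested. The direction reversed for 2 values near 0. Without the replicate block (the litter term) the log2 fold change of Gabrb2 in the neurons was -0.0107, the count called was 0 in both tissues, and over all genes 0 were called up and 1 down in each tissue, against 47 and 10 in the cortex and 27 and 11 in the neurons with the pairing by litter. Gabra2 in the cortex ranged from -0.0214 to 0.195 when single libraries were left out and was negative without Phf6+/Y cortex replicate 2. Over all genes DESeq2 called 153 up and 42 down in the cortex and 48 and 15 in the neurons, and the table without a filter 95 and 19, and 178 and 119. Leaving out single libraries gave 6 up (without Phf6+/Y cortex replicate 2) to 68 up (without Phf6-/Y cortex replicate 5) in the cortex and 12 up (without Phf6+/Y;Nes-creTg/+ replicate 2) to 335 up in the neurons. The length alternative changed the order of the genes, as given above. With library totals alone the median of all genes between control tissues moved from -0.03 to -0.17, and the calls among the 7 genes were the same 5. Gabrb1 and Gabrg1 had as few as 55 and 24 counts in a library, which limits what could be detected for them.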

Other observations

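A pair of neighbours in the chromosome 5 cluster took opposite directions between tissues. Gabra2 and Gabrg1, separated by 115774 bases with no other protein-coding gene annotated between them, had log2 fold changes of 1.73 and -1.59 between control cultures and control cortex. With the mean of each tissue subtracted, their r was 0.73 over 15 libraries, which share litters and genotype, 0.67 without Phf6-/Y cortex replicate 1, 0.89 over the 8 cortices and 0.52 over the 7 cultures. For the other neighbours, Gabra4 and Gabrb1, r was 0.52 over the cortices and -0.13 over the cultures, and for Gabra2 and Gabra4 0.82 and 0.44. The other gene that was lower in culture, Gabra3, lies on the X chromosome, and its 2 promoter windows, which share 188 bases, are the only ones of the 11 without a CG dinucleotide. The summed pan-neuronal markers were at 5027 to 5494 CPM in control cortex and 7655 to 8565 CPM in control cultures, a direction shared by Gabra2, Gabra5 and Gabrb2 and not by Gabra3 or Gabrg1. Gabra3 was also the gene whose level followed those markers least from library to library (r = 0.18), whereas for Gabrg1 r was 0.73. These 2 values include Phf6-/Y cortex replicate 1 and were not computed without it.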
